A study of Gasterosteus aculeatus with 242 samples.

Results

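The brain response to a simulated predator attack in an open field was described in hand-reared male threespine sticklebacks (Gasterosteus aculeatus). Fish were chosen by their labels as male, Day 0 (raised by hand without the father) and either open-field or baseline, which gave 67 of the 242 fish in the series. Of these, 28 were open-field fish and 39 were baseline fish, and 66 had usable depth: 39 baseline and 27 open-field. The lowest total kept was 783134 counts and the single library left out, an open-field male of family 25 from the right side on plate 1, held 2055, so that the limit of 500000 counts fell in a wide gap.

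Messenger RNA was measured by 3′ tag sequencing, a method that reads only a short stretch beside the poly(A) end of each transcript, so that longer genes gain no extra counts. All fish were juveniles of 6 to 8 months, offspring of wild-caught fathers in a half-sib design, and were sexed with a DNA marker. An open-field fish was placed alone in a pool for 10 min, a model sculpin was then moved once around the pool, and the brain was taken 60 min after that attack. A baseline fish was a full sibling taken straight from its home tank, which never entered the pool and whose brain was dissected within 30 min of its partner's. The baseline group therefore differs from the open-field group in capture, isolation, the new arena and the model predator together, and these components cannot be told apart. The other groups were hand-reared females (57 fish), father-reared males (57) and father-reared females (61), the last pair carrying the label Day 10. Hand-reared and father-reared fish came from different families, 8 of each.

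A new place or a predator activates neurons across the fish brain, and active neurons transcribe a set of fast, short-lived genes, followed by slower genes that those products switch on. In parallel the hypothalamus and pituitary drive the interrenal tissue to release cortisol, whose receptors are themselves transcription factors in brain cells. Sticklebacks are a standard fish for such work because males guard the nest and young, and juveniles meet predators such as sculpins early in life.

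Each library came from the left or the right side of 1 brain. Baseline males comprised 19 left and 20 right sides, and open-field males 15 left and 12 right. Library totals ran from 783134 to 1503794 counts (median 1001629) in baseline males and from 796280 to 1231685 (median 1038252) in open-field males, with a median of 13622 and 13675 genes detected. The sexes stood apart as labelled: ENSGACG00000006281, picked as a sex-differing gene in father-reared fish, had at least 89.4 CPM, a count scaled to the library total, in all 66 hand-reared males and at most 12.2 CPM in all 57 hand-reared females. The deposited table names genes by Ensembl identifier only and does not pair them with symbols, and none of its 22456 identifiers matched the reference table used here. Roles of single genes, lists of activity-dependent or stress-axis genes and markers of brain cell types could therefore not be applied, and the labelled tissue was not checked against markers. In these pieces of whole brain tissue, fewer cells of a type and less RNA per cell cannot be told apart.

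The first question was which transcripts differed in hand-reared males 60 min after the attack. The response was small in number and went one way. With edgeR's quasi-likelihood test and Benjamini-Hochberg adjustment at 0.05, 12 of 7156 genes tested rose in the open field, which is 0.168% of them, and 0 fell (0%). At an unadjusted p under 0.05 there were 312 genes, of which 51.6% were higher in the open field. That count is below the share of tested genes that chance alone gives at that level. DESeq2 called 14 higher and 1 lower, and limma-voom 13 higher and 0 lower. The median log2 fold change over all tested genes was −0.00243 and the median standard error 0.0788. For 98.1% of tested genes the 95% interval of the response lay wholly within 1.5-fold of no change. The main fit did not model sibling partners. With 19 male pairs that share a family and fish number as blocks, 4 of 6869 genes rose and 0 fell, in fewer fish.

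**Figure D1:**
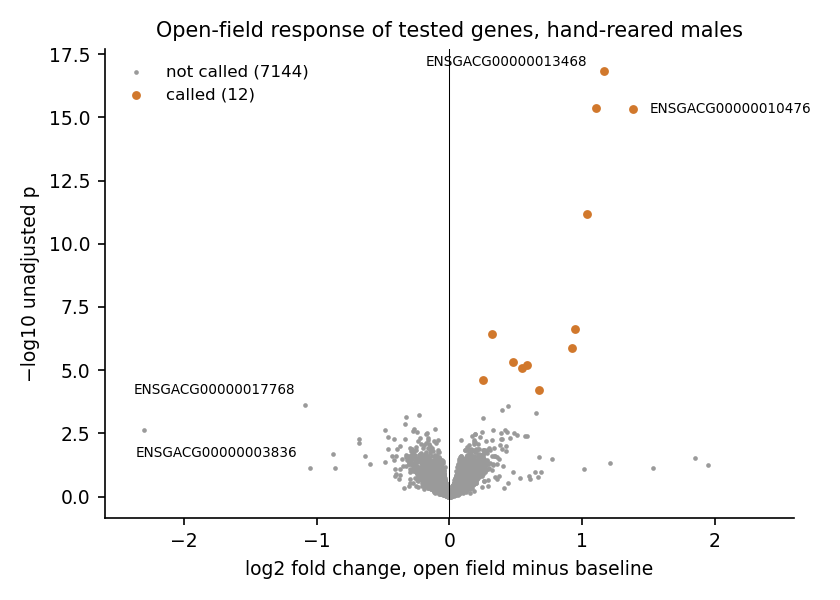
Log2 fold change between open-field and baseline hand-reared males (x axis) against −log10 of the unadjusted p from edgeR's quasi-likelihood test (y axis), 1 point per tested gene. All 12 called genes lie right of 0, and the 2 labelled genes on the left were not called by this test.

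The 12 genes that rose had log2 fold changes from 0.25 to 1.38 (median 0.80), with standard errors of 0.056 to 0.17 and adjusted p from 1.0e-13 to 0.037 by edgeR's quasi-likelihood test. Their mean baseline levels ran from 6.58 to 535 CPM (median 33.5). Of the 12, 6 had a log2 fold change over 0.9 and 3 were at or below 0.5. Direction held in most families: 11 were higher in 8 of 8 families and 1 in 7 of 8. The third gene by fold change had a mean of 52.97 CPM in baseline and 115.9 CPM in open-field males (log2 fold change 1.104, SE 0.101). The most abundant of the 12 had the smallest response, from 535 to 650.3 CPM (0.25, SE 0.0557). These counts describe genes chosen on the same fish and are no further support for the call.

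ENSGACG00000010476 had the largest fold change among the called genes. Its level in baseline males ran from 6.17 to 60.8 CPM with a median of 28.6 (mean 29.2 ± 12.9, SD, n = 39). In open-field males it ran from 36.8 to 129.9 CPM with a median of 69.7 (mean 77.02 ± 25.1, SD, n = 27). The ranges overlapped at their edges: 20 of 27 open-field males lay above the highest baseline male, and 29 of 39 baseline males lay below the lowest open-field male. No baseline male reached the open-field median. The ratio of means was 2.64, and the fitted log2 fold change was 1.38 (SE 0.126, adjusted p = 1.1e-12, edgeR quasi-likelihood test). Relative to its mean the gene varied more among baseline males, with a coefficient of variation of 44.1% against 32.5% in the open field.

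ENSGACG00000013468, the other gene of largest fold change, separated the groups more fully at a lower level. Baseline males ran from 5.24 to 28.7 CPM with a median of 17.6 (mean 17.5 ± 5.22, SD, n = 39). Open-field males ran from 21.5 to 62.3 CPM with a median of 39.9 (mean 39.7 ± 10.3, SD, n = 27). Only 3 of 27 open-field males lay at or below the highest baseline male, and 31 of 39 baseline males lay below the lowest open-field male. The ratio of means was 2.27, and the log2 fold change was 1.16 (SE 0.098, adjusted p = 1.0e-13, edgeR quasi-likelihood test). The same fish of family 30 gave the lowest open-field value of both genes.

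**Figure D2:**
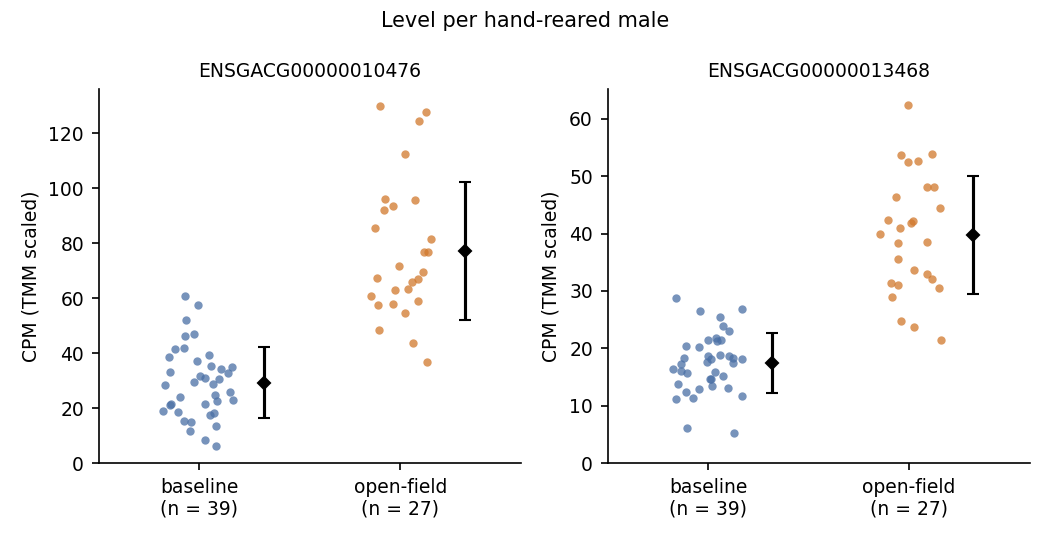
Level of the 2 genes in each hand-reared male (y axis, CPM after TMM scaling), by exposure; a point is 1 fish and the diamond and bar are the mean and SD. In ENSGACG00000010476, 20 of 27 open-field males lie above every baseline male, and in ENSGACG00000013468, 24 of 27.

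Both genes were higher in the open field in each of the 8 families. For ENSGACG00000010476 the family differences in mean log2 level ran from 0.97 in family 30 to 1.98 in family 22 (median 1.47). In family 22 its mean went from 23.6 CPM (n = 5) to 94.3 CPM (n = 2), and in family 30 from 34.6 CPM (n = 5) to 69.9 CPM (n = 4). For ENSGACG00000013468 the same families were at the ends, with 0.76 in family 30 and 2.01 in family 22 (median 1.03). Family 22 also had the lowest baseline mean of ENSGACG00000013468, 10.5 CPM, and the highest open-field mean, 45.4 CPM. In 6 of 8 families every open-field male exceeded every baseline male in both genes, the exceptions being families 30 and 40. Family 32 had only 1 baseline male and 2 open-field males. Whether the response differed between families was not tested.

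**Figure D3:**
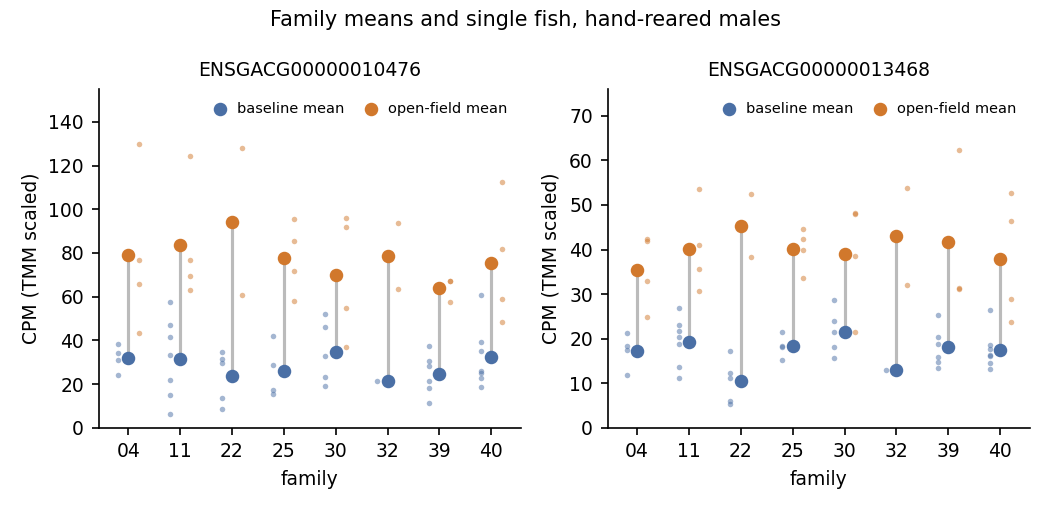
Level of the 2 genes by family (x axis) in hand-reared males (y axis, CPM after TMM scaling); large points are family means joined by a line, and small points are single fish, baseline to the left and open-field to the right. The open-field mean is above the baseline mean in all 8 families, with the widest gap in family 22 and overlap of single fish in families 30 and 40. Both genes were chosen on these fish.

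Fitted within plates 1, 2 and 3, with fewer fish each, 4, 2 and 0 genes rose. The genes called over all hand-reared males that could be tested there had median log2 fold changes of 0.97, 0.66 and 0.70, a description only, since these fish also chose them. ENSGACG00000010476 had log2 fold changes of 1.34 (SE 0.198) on plate 1, 1.70 (SE 0.241) on plate 2 and 0.82 (SE 0.247) on plate 3, where its adjusted p was 1 by edgeR's quasi-likelihood test. ENSGACG00000013468 had 1.28 on plate 1, 0.96 on plate 2 (adjusted p = 0.25) and 0.85 on plate 3 (adjusted p = 1) in the same fits. Plate 3 held 8 baseline and 6 open-field males.

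The levels of the 2 genes were compared among fish after exposure, family, plate and side. Their log2 levels correlated within baseline males with Pearson's r = 0.433 (permutation p = 0.0065, adjusted p = 0.0085) and Spearman's rho = 0.349 (permutation p = 0.03, adjusted p = 0.03; n = 39). Without the 2 fish farthest from the median of ENSGACG00000010476, r was smaller, at 0.153. Leaving out extreme fish narrows the range and can by itself lower r, so how far the relation rests on them cannot be told. Within open-field males r was 0.498 (permutation p = 0.0085, adjusted p = 0.0085) and rho 0.44 (permutation p = 0.023, adjusted p = 0.03; n = 27), and r was 0.304 without the 2 farthest fish, also smaller. The p-values are adjusted over 4 relations. Because the genes were chosen on these fish, the relations are descriptions.

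The next question was whether the same genes respond in fish that played no part in choosing them. In all fish other than hand-reared males, fitted alone, 36 of 7050 genes rose (0.511%) and 3 fell (0.0426%). Of those 36, 35 could be tested in hand-reared males, and 35 of 35 were higher in the open field there, against 48.2% of all tested genes. Their median log2 fold change was 0.30 in hand-reared males and 0.36 in the other fish, where they were chosen, and −0.00243 over all genes in hand-reared males. Of the 35, 26 had an unadjusted p under 0.05 and 12 were called in hand-reared males, against 0.168% of all tested genes; these are the 12 genes above. All 3 genes that fell in the other fish were lower in hand-reared males (median −0.15, from −0.19 to −0.03), and 0 of them was called by edgeR, with 1 at an unadjusted p under 0.05. Across these 38 genes the fold changes of both sets of fish had r = 0.92, and across all 6972 genes tested in both, r = 0.286; genes are not independent replicates, and the first set was selected for its size.

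**Figure D4:**
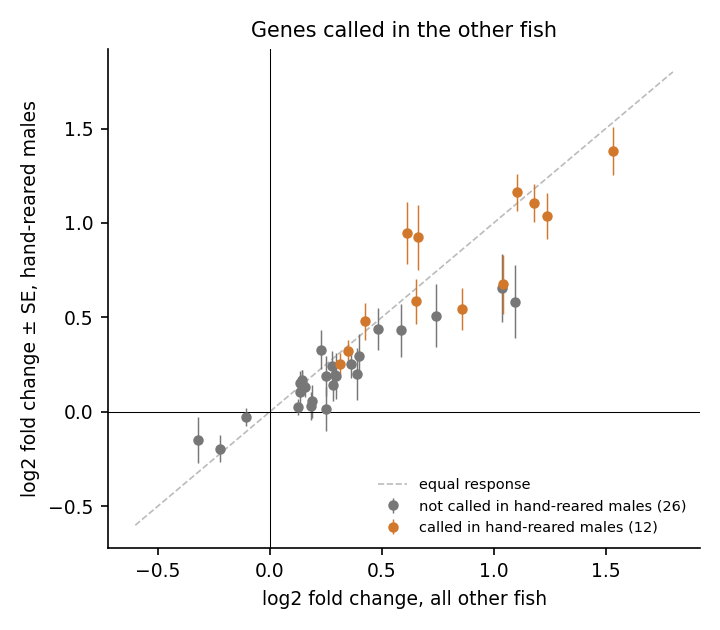
Log2 fold change, open field minus baseline, of the 38 genes called in all other fish: in those fish (x axis) and in hand-reared males with its standard error (y axis). The 35 genes right of 0 are all above 0 in hand-reared males, and the 3 genes left of 0 are all below it.

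Fitted as separate groups, hand-reared females had 14 genes that rose of 7040 (0.199%) and 0 that fell (0%, with 417 genes either way at an unadjusted p under 0.05), father-reared males 10 of 6920 (0.145%) and 0 (0%, with 424), and father-reared females 23 of 7072 (0.325%) and 1 (0.0141%). A count per group does not compare the responses, so their differences were tested directly. In 1 model over all fish, the 12 genes had a median log2 fold change of 0.85 in hand-reared males, 0.76 in hand-reared females, 0.66 in father-reared males and 0.89 in father-reared females. All 12 were higher in each of the 4 groups, which selection had fixed in hand-reared males. In the same order of groups, 12, 10, 8 and 12 of them were called in that model by edgeR's quasi-likelihood test. The 12 genes were chosen in hand-reared males, which can raise their values there, so these medians do not rank the groups. ENSGACG00000010476 had log2 fold changes of 1.39 (SE 0.128), 1.31 (SE 0.142), 1.41 (SE 0.141) and 1.86 (SE 0.144) in that order of groups. ENSGACG00000013468 had 1.197 (SE 0.111), 0.93 (SE 0.12), 1.02 (SE 0.124) and 1.37 (SE 0.123).

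Between hand-reared males and hand-reared females, the response differed in 0 of 7747 genes (0%) by edgeR's quasi-likelihood test of the interaction, with 332 at an unadjusted p under 0.05. DESeq2 also called 0, with 326 at an unadjusted p under 0.05. Both counts are below the share of genes that chance alone gives at that level. The difference for ENSGACG00000010476 was 0.08 on the log2 scale (95% interval −0.305 to 0.465) and for ENSGACG00000013468 0.26 (−0.0422 to 0.568). Over the 12 genes it ran from −0.39 to 0.41, with 7 above 0, a description only, since hand-reared males chose the genes. The median standard error of the difference was 0.122, and for 86.6% of genes the 95% interval lay wholly within 1.5-fold of no difference.

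Between hand-reared and father-reared males, the response differed in 0 of 11183 genes (0%), tested with edgeR on counts summed within families because rearing was applied to whole families. That fit had no plate or side term. Summed counts let more genes pass the filter than the 7747 of the sex comparison, so shares of genes in the 2 comparisons cover different sets. At an unadjusted p under 0.05 there were 418 genes, and DESeq2 called 0 with 200 at that level. Both counts are below the share of genes that chance alone gives there. The difference was −0.10 for ENSGACG00000010476 (95% interval −0.402 to 0.208) and 0.11 for ENSGACG00000013468 (−0.202 to 0.425). Over the 12 genes it ran from −0.21 to 0.48, with 8 above 0. This range and the gaps of single genes below are descriptions only, since hand-reared males chose the genes. The fifth and sixth genes by fold change had the widest gaps, 0.48 (SE 0.24, unadjusted p = 0.058) and 0.46 (SE 0.208, unadjusted p = 0.036), each with an adjusted p of 1 by edgeR's quasi-likelihood test. In the model over all fish the fifth gene had a log2 fold change of 0.97 in hand-reared males, 0.57 in hand-reared females, 0.53 in father-reared males and 0.75 in father-reared females, from a low baseline mean of 6.58 CPM. Its open-field mean in hand-reared males was 12.72 CPM, so it passed the minimum count mainly through open-field males. It was not kept within plates 1 and 2, within the left side or in a fit of paired males. The median standard error was 0.177. For 60.6% of genes the 95% interval, by a normal approximation narrower than the F-test implies, lay wholly within 1.5-fold of no difference. For the others a difference of that size was not excluded. Without the filter on low counts, 25 of 20280 genes were called.

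The left and right sides were compared because each fish gave RNA from a single side. The response differed between sides in 0 of 7704 genes (0%) by edgeR, with 429 at an unadjusted p under 0.05, while DESeq2 called 2. Those 429 are slightly above the share that chance alone gives at that level. The median standard error of the difference was 0.169. For 65.3% of genes the 95% interval, by the same normal approximation, lay wholly within 1.5-fold of no difference. For the others a difference of that size was not excluded. Fitted within a side, 7 genes rose on the left and 4 on the right. Of the 12 genes called over both sides, 11 could be tested on the left, with a median log2 fold change of 1.02. On the right 12 could be tested, with a median of 0.62. These medians are a description in the fish that chose the genes, and none of the 12 passed the test of the difference. The widest gap among them belonged to the gene seventh by fold change, at 1.06 on the left and 0.08 on the right, and its test of the difference gave 0.95 (SE 0.299, unadjusted p = 0.0024, adjusted p = 0.61, edgeR quasi-likelihood test). ENSGACG00000010476 differed by 0.02 (95% interval −0.491 to 0.533) and ENSGACG00000013468 by 0.23 (−0.165 to 0.632).

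No gene passed edgeR's test in the lower direction, but DESeq2 called 1, ENSGACG00000003836, which is described because it was seen to be called there. Its level in baseline males ran from 1.72 to 6432 CPM with a median of 2328 (mean 2411 ± 2228, SD, n = 39). In open-field males it ran from 10.9 to 6812 CPM with a median of 54.1 (mean 722 ± 1562, SD, n = 27). The ranges overlapped almost wholly, and fewer fish were high in the open field. Whether the level also differed among the high fish or among the low fish was not tested. On the log2 scale the fold change was −2.33 by DESeq2 (SE 0.587, adjusted p = 0.039) and by edgeR −2.30 (SE 0.729, adjusted p = 0.67).

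The gene had separate high and low levels across hand-reared males, with none of the 66 between 153.8 and 1281 CPM (scaled over hand-reared males). A divide at 300 CPM, set after seeing the values, put 29 fish on the high side with a median of 4071 CPM and 37 on the low side with a median of 36.8 CPM. At its highest the gene took 0.681% of a hand-reared male's TMM-scaled counts over the tested genes. High fish made up 23 of 39 baseline males (exact 95% interval 42.1 to 74.4%) and 6 of 27 open-field males (8.62 to 42.3%). The share of high fish was lower in the open field on each plate, with 12 of 18, 7 of 13 and 4 of 8 in baseline against 2 of 13, 2 of 8 and 2 of 6 in the open field on plates 1, 2 and 3. The same order held on the left side, 12 of 19 against 2 of 15, and on the right side, 11 of 20 against 4 of 12. By family, the mean log2 level was lower in the open field in 6 of 8 and slightly higher in 2, families 32 (0.11) and 40 (0.10). The gene and the divide were chosen on these fish, so these splits are descriptions and no further support.

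In fish that were not used to pick the gene, the pooled shares lay closer together. The divide was less clean there, because some of these fish lay inside the gap seen in hand-reared males. Examples are a father-reared male at 433.5 CPM and a hand-reared female at 979.4 CPM (scaled over all fish). Over all fish, 3 lay between 200 and 600 CPM. High fish made up 31 of 82 baseline fish (27.3 to 49.2%) and 27 of 93 open-field fish (20.1 to 39.4%) outside the hand-reared males. By group, they were 10 of 25 against 10 of 32 in hand-reared females, 9 of 31 against 10 of 26 in father-reared males and 12 of 26 against 7 of 35 in father-reared females, so that father-reared males had the opposite order. The log2 fold change in all fish outside the hand-reared males was −0.95 (SE 0.593, adjusted p = 0.93, edgeR quasi-likelihood test). In the model over all fish it was −2.12 (SE 0.791) in hand-reared males and −2.32 (SE 0.836) in father-reared females. In that model it was −0.36 (SE 0.834) in hand-reared females and 1.665 (SE 1.01) in father-reared males. The difference of response was −1.27 (95% interval −3.56 to 1.01) against hand-reared females and −2.48 (−5.56 to 0.612) against father-reared males, each with an adjusted p of 1. Intervals on shares cover counting of fish only.

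**Figure D5:**
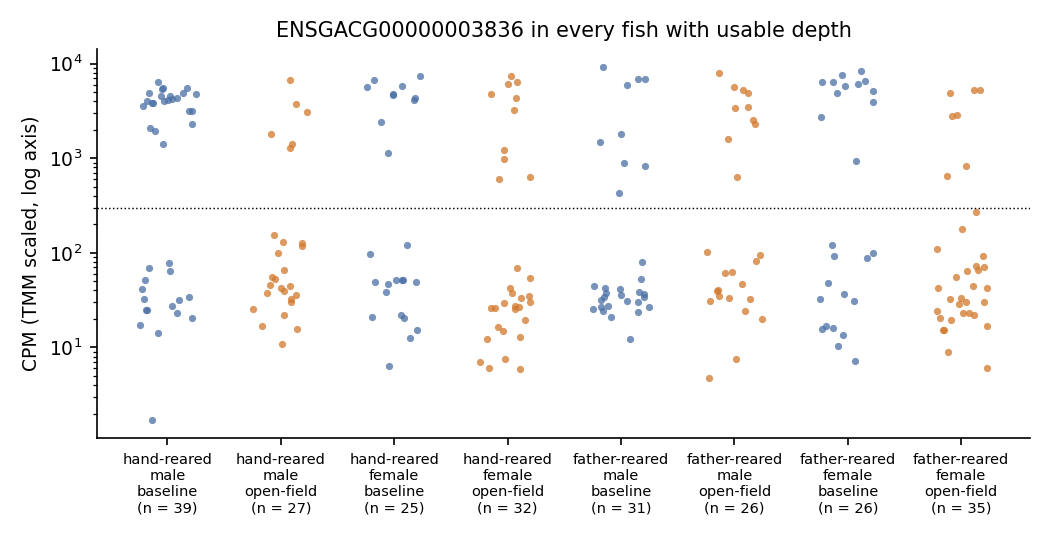
Level of ENSGACG00000003836 in every fish with usable depth (y axis, CPM on a log scale), by rearing, sex and exposure; a point is 1 fish and the dotted line marks 300 CPM. In hand-reared males, 23 of 39 baseline fish and 6 of 27 open-field fish lie above the line, and all 8 groups hold fish on both sides of it.

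ENSGACG00000017768 was the gene whose level over the 66 males was most like that of ENSGACG00000003836, first among 7155 by correlation after exposure, family, plate and side. Its r was 0.788, and the second gene was close behind at 0.769. In baseline males it ran from 1.89 to 47.9 CPM with a median of 12.3 (mean 15.4 ± 12.2, SD, n = 39). In open-field males it ran from 0 to 17.8 CPM with a median of 4.92 (mean 6.83 ± 5.54, SD, n = 27). The groups overlapped, with 22 of 27 open-field males below the baseline median. The open-field upper quartile was 7.91 CPM, so the gene passed the minimum count mainly through baseline males. By edgeR's quasi-likelihood test its log2 fold change was −1.09 (SE 0.278, adjusted p = 0.13), and −0.34 (SE 0.2, adjusted p = 1) with the level of ENSGACG00000003836 added as a term after seeing the data. ENSGACG00000017768 was picked for its likeness to that gene in these fish, so a smaller value with the term was built in. Nothing is concluded from the drop. Within the 29 high fish the levels of the 2 genes had r = 0.501 (permutation p = 0.0056, adjusted p = 0.0085) and rho = 0.442 (permutation p = 0.017, adjusted p = 0.03), and r = 0.493 without the 2 farthest fish. Within the 37 low fish r was 0.51 (permutation p = 0.0012, adjusted p = 0.0048) and rho 0.557 (permutation p = 0.00046, adjusted p = 0.0018), and r 0.497 without the 2 farthest. The gene was picked for its likeness over these fish, so these p-values overstate the relation. The levels compared were those left after exposure, family, plate and side, fitted over all 66 males. The divide used the levels before that step, so the fitted terms alone can give a relation within high or low fish. How far they do was not tested, and no relation of the unadjusted levels within high or low fish is concluded. With that level in the model 10 genes rose, and ENSGACG00000010476 had a log2 fold change of 1.40 (SE 0.134).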

How the data were processed

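Brain messenger RNA of 242 fish was sequenced by 3′ tag sequencing on 6 lanes with reads of 100 nt. The authors deposited raw counts of reads per Ensembl identifier, 1 column per lane of a library (1452 columns). FastQC 0.11.8, STAR 2.2.3a and HTSeq 0.9.1 are named, per the submitters' processing notes, with no settings. The genome build, the annotation, the strand setting and duplicate removal were not given in the sources used here, so genes that overlap or share near-identical copies may be miscounted, and so may antisense pairs.

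The members, lists and tests were chosen with earlier results of these data known. Lanes were summed per fish and libraries under 500000 counts were left out. Family was taken from the number that starts a fish code, and plate from the digit that starts a library name; the labels do not state either. Half-sib relations between families were not modelled, and the main fit did not model sibling partners. Genes were kept by filterByExpr (minimum count 10) and tested on the deposited counts with edgeR 4.0.16 in R 4.3.3 (TMM scaling, quasi-likelihood F-test), with exposure, family, plate and hemisphere as terms and Benjamini-Hochberg adjustment at 0.05. CPM were computed here from those counts after TMM scaling, and levels per hand-reared male used the total over the genes kept. Fish are separate animals. The difference between sexes and between sides was an interaction term. That between rearing groups was fitted on family sums, with family and exposure but no plate or hemisphere term. DESeq2 1.42.0 and limma 3.58.1 (voom) were alternatives, as were other filters, scalings, terms, plates, sides and left-out families. The scripts were tested on simulated data. Correlations used 100000 permutations, two-sided, and intervals on shares are exact Clopper-Pearson.

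Genes were named by a rule: because no symbols could be had, at most 2 genes per direction, those of largest fold change among called genes with the same direction in at least 7 of 8 families. ENSGACG00000003836 and ENSGACG00000017768 fall outside it and were chosen after their values were seen. ENSGACG00000006281 serves as a check of the sex labels.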

Additional observations from a re-analysis of the deposited data

Results flagged for a closer look

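The response of ENSGACG00000003836 in family 22 stood apart from the other families. Its mean log2 level was −6.15 relative to baseline there, and the next lowest family was at −2.67. The 2 open-field males of that family were both on the low side of the divide at 300 CPM, and 4 of its 5 baseline males were on the high side. Without family 22 the log2 fold change over all hand-reared males was −2.08 (SE 0.74, adjusted p = 1, edgeR quasi-likelihood test). Chance flags about 1 in 20 sets of families, and 1 of 13 sets examined was flagged.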

How the results depend on the processing

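The count of genes that rose was 12, and 4 within the right side, 7 within the left, and 4, 2 and 0 within plates 1, 2 and 3, where fewer fish entered. It was 8 to 12 when each family was left out in turn, the lowest without family 30. Under the other alternatives, the replicate block aside, it was 10 to 16, and the 12 genes kept their direction wherever they could be tested. The count of genes that fell was 0, and 1 by DESeq2, 2 with no filter on low counts, 1 with all fish in 1 model, 1 within the left side, 1 within plate 1 and 0 to 1 over the left-out families, the 1 without family 04. There ENSGACG00000017768 had a log2 fold change of −1.30 (adjusted p = 0.034, edgeR), and with no filter −1.09 (adjusted p = 0.036). Its adjusted p ran from 0.034 to 1 over 21 alternatives. The filter dropped this gene at a minimum count of 20, in the replicate block, on the left side and on plate 3. It was also dropped in the other fish. For ENSGACG00000003836 the adjusted p ran from 0.039 to 1 over 24. Without the filter, 25 genes differed between rearing groups and 1 between sides; DESeq2 called 2 between sides. The causes were not tested.

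Males of 1 family that share a fish number could be paired in 19 cases. The labels describe sibling partners but not that the number marks them. All 19 pairs shared a brain side, and their deviations correlated with a median of 0.179, against −0.0118 for other pairings. Only 13 pairs exceeded 0.1, and the number was not used to pair fish in the main fit. That cut cannot decide whether the number marks sibling partners, though unrelated numbering would seldom give a shared side in 19 of 19 pairs. If the number does mark partners, the main fit left the pairing out. With the number as a replicate block, on these pairs alone, 4 genes rose in place of 12 and 0 fell. ENSGACG00000010476 and ENSGACG00000013468 were higher in the open field in 19 of 19 such pairs, a description in fish that also chose them. ENSGACG00000003836 and ENSGACG00000017768 were lower in 11 and higher in 8 each, with median log2 differences of −0.43 and −0.47.

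Library totals with a median of 1001629 counts in baseline males left 7156 of the 19840 genes with a count in hand-reared males testable, so the main fit did not measure responses of low genes. With no filter on low counts all 19840 were tested, and 15 rose and 2 fell.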
